A study of Mus musculus with 2 samples.

Results

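The 10 genes described here encode surface proteins by which myeloid cells steer T cells, and they are 10 of the 27809 genes measured. They were taken by symbol, whatever their values were: *Cd80*, *Cd86*, *Icosl*, *Cd40*, *Tnfsf9*, *Cd83*, *Cd274*, *Pdcd1lg2*, *Vsir* and *Havcr2*. They were read in single CD45+ cells of mouse hearts, CD45 being the surface protein shared by leukocytes. The hearts came from male mice of C57BL/6 background (C57BL/6N in the labels, which cover the pooled library as a whole) that were 8 weeks old, and were taken 1 week after sham surgery or transverse aortic constriction (TAC), a band around the aorta that puts the heart under pressure overload. The 5 groups held sham and TAC hearts of WT mice, sham and TAC hearts of CD3ϵ-/- mice, and TAC hearts of WT mice that were injected with an antibody to CD8 from the day of surgery on. CD3ϵ-/- mice lack a chain of the T cell receptor complex in all their cells from birth, so they never had mature T cells, whereas the antibody acts on grown mice. The cells of each group carried their own hashtag and were sequenced together in 1 library, made by TAS-Seq from cells caught in microwells (BD Rhapsody). How many hearts went into a group is not given in the sources used here. Each group was 1 sample, so no test was made, and values of groups are set side by side. Where no group is named, 5 values run from WT sham over CD3ϵ-/- sham to WT TAC, then CD3ϵ-/- TAC, with CD8-depleted TAC last.

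A T cell that meets its antigen on another cell also reads the surface proteins of that cell. CD80 and CD86 bind CD28, which adds the signal needed for full activation, and also CTLA-4, which restrains the T cell. ICOS ligand and 4-1BB ligand (*Tnfsf9*) bind ICOS and 4-1BB, while CD40 works the other way and carries a signal from CD40 ligand of T cells into the presenting cell. PD-L1 (*Cd274*) and PD-L2 (*Pdcd1lg2*) bind PD-1 and dampen T cells, VISTA (*Vsir*) restrains them as well, and TIM-3 (*Havcr2*) is an inhibitory receptor that is found on dendritic cells and macrophages as well as on T cells. CD83 marks maturing dendritic cells and keeps MHC class II and CD86 on their surface.

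In the RefSeq annotation of GRCm38.p6, *Cd80* lies at chr16:38457430-38495958 and *Cd86*, on the same chromosome, at chr16:36568956-36666158. *Cd274* at chr19:29362107-29388095 and *Pdcd1lg2* at chr19:29410919-29472927 are separated by 22823 bases. The other genes lie on chromosomes 2 (*Cd40*), 10 (*Icosl* and *Vsir*), 11 (*Havcr2*), 13 (*Cd83*) and 17 (*Tnfsf9*). Promoters of 300 bases, from 250 before to 50 after the start, were at hand from RefSeq for 6 of the 10 genes, namely *Cd80*, *Cd274*, *Pdcd1lg2*, *Icosl*, *Havcr2* and *Vsir*. They were searched on both strands for the kB motif of NF-kB, the interferon response motif, TGANTCA (AP-1) and TGACGTCA (CRE). These motifs are found in 1.63%, 3.44%, 7.81% and 1.79% of all 32851 promoters of the table. Among the 6 promoters only TGANTCA was found, once in *Cd80* and once in *Havcr2*. Both matches read TGATTCA, whose centre T is outside the stricter AP-1 form TGA(C/G)TCA. Both promoters are shown, on the plus strand, together with that of *Cd274*, as that of a further inhibitory gene without a match. Capitals mark the letters TGATTCA, which start 42 bases before the start of *Cd80* (chr16:38458683-38458982) and 200 bases before the start of *Havcr2* (chr11:46454681-46454980). No motif was matched in *Cd274* (chr19:29367188-29367487). The windows of *Cd80* and *Cd274* lie at a transcript start inside the span of the gene given above, and that of *Havcr2* at the start of the span. A match is a description of the letters alone.
Cd80: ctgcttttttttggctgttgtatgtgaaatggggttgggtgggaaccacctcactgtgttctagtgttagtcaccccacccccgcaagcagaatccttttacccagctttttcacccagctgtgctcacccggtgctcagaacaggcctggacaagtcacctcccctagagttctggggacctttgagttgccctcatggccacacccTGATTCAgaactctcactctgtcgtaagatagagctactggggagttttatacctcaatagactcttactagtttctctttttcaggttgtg
Havcr2: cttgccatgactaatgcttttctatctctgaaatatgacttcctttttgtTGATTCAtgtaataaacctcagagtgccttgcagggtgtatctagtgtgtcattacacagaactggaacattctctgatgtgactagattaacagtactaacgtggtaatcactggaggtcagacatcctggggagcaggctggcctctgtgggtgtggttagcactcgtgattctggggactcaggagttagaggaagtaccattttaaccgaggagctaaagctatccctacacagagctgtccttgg
Cd274: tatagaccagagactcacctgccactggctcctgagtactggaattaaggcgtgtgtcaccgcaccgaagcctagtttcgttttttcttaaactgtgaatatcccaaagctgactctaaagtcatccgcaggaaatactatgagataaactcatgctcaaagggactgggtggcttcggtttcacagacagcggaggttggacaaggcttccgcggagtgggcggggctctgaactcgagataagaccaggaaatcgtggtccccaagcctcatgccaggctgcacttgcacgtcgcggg

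After the filters 1000, 835, 1615, 919 and 894 cells were kept, and all 5363 barcodes of the matrix were distinct. Cells were sorted into gates by their own reads of marker genes. Cells with *Csf1r* and *Lyz2*, genes of monocytes and macrophages, numbered 561, 455, 1105, 664 and 618, with median reads of 74628 to 127512 per cell. Of these 3403 cells, 521 had *Ly6c2*, a gene of inflammatory monocytes, 203 had *Lyve1*, a gene of resident macrophages, and 2679 had neither above the limits and are called Ly6c2- Lyve1- cells. Other gates were *Cd209a* (419 cells) and *Xcr1* (155 cells), genes of the 2 kinds of conventional dendritic cell, *Cd79a* (467 cells), a gene of B cells, and *Cd3g* or *Nkg7* (132 cells), called T and NK. In the *Lyve1*, *Xcr1*, *Cd79a* and T and NK gates all 5, 6, 5 and 6 further markers were highest in their own gate, and in the *Ly6c2* and *Cd209a* gates 4 of 5 and 4 of 6. The *Ly6c2* gate held 2.30%, 4.07%, 9.66%, 18.1% and 15.9% of the kept cells, and the *Lyve1* gate 7.50%, 3.71%, 3.16%, 1.63% and 3.47%, so TAC and sham differed in the makeup of the gated cells. Of the targeted complex, *Cd3e* itself came to 17.8, 3.73, 10.8, 5.64 and 13.6 CPM, where the place of its reads in the gene is not given, and *Cd3g*, which was near 0 in both CD3ϵ-/- groups, to 45.6, 0.555, 17.5, 0.0661 and 22.5 CPM. *Cd8a* or *Cd8b1* was read more than 3 times in 10 of 1000, 2 of 835, 19 of 1615, 4 of 919 and 9 of 894 cells. So few cells do not show whether CD8 T cells were depleted, and the name CD8-depleted TAC is used here as the label of that group.

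A level is given in CPM, the summed reads of a gene scaled to the summed reads of the same cells. Ranges in parentheses are exact 95% intervals, Poisson for levels and Clopper-Pearson for shares of cells. They cover counting error only and are too narrow for levels, since reads of 1 molecule are not independent: cells with more than 3 reads of a gene held a median of 11 reads of *Cd40* and up to 42 of *Vsir*. For shares each cell was thinned at random to 34832 reads, and a cell was counted when it still had more than 3 reads of the gene, because 13.6% to 58.1% of the cells with any read of these genes had only 1 to 3 reads. Levels were compared between cells for 1 gene at a time and never between genes.

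The 10 genes parted the cells of the heart in different ways. *Cd86* and *Havcr2* were highest in *Xcr1* cells, *Cd80* and *Tnfsf9* in *Cd209a* cells, *Cd40*, *Cd83*, *Cd274* and *Icosl* in *Cd79a* cells, *Vsir* in *Lyve1* cells, and *Pdcd1lg2* in T and NK cells.

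**Figure D1:**
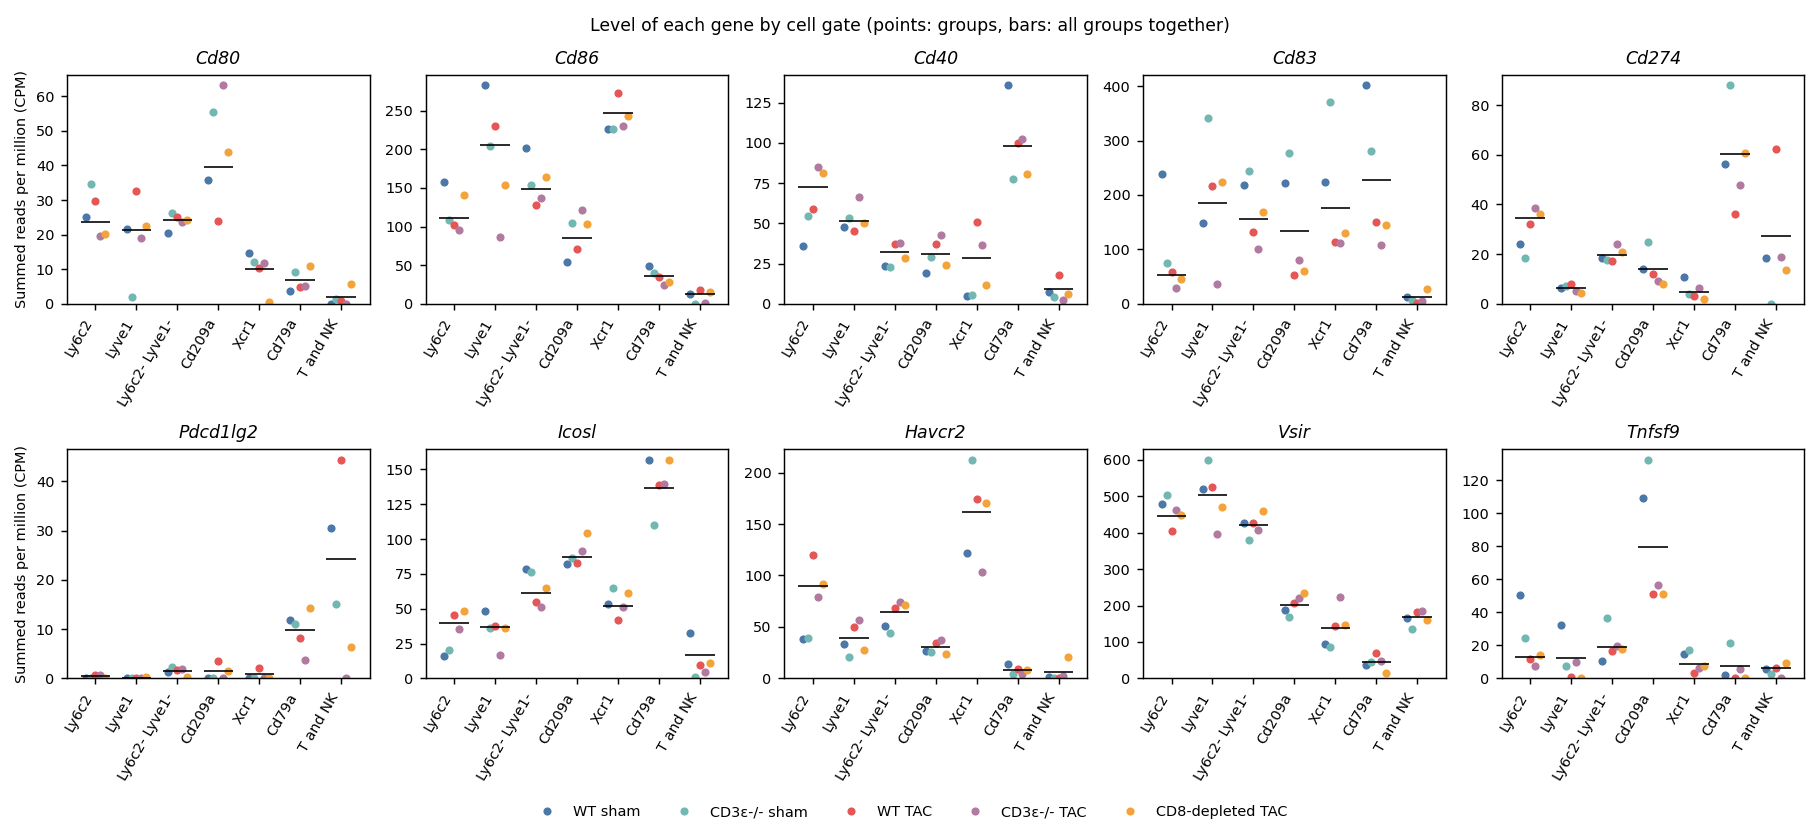
Levels of the 10 genes (vertical axes, CPM, a scale of its own for each gene) in 7 cell gates (horizontal axes), with a point for each of the 5 groups and a bar for all groups together. *Vsir* is high in the 3 gates of *Csf1r* *Lyz2* cells and low in *Cd79a* cells, whereas *Cd40*, *Cd274* and *Icosl* have their highest bars in *Cd79a* cells.

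The B7 ligands of CD28 were set apart by cell type. *Cd86* came to 247 CPM in *Xcr1* cells, 206 in *Lyve1* cells, 149 in Ly6c2- Lyve1- cells, 111 in *Ly6c2* cells, 84.7 in *Cd209a* cells, 36.2 in *Cd79a* cells and 13.05 in T and NK cells. At equal depth 70.1% (62.2% to 77.2%) of *Xcr1* cells and 56.8% (49.5% to 64.0%) of *Lyve1* cells had more than 3 reads of it, intervals that overlap slightly, against 3.33% (0.916% to 8.31%) of T and NK cells, which serve here as background. *Cd80* was highest in *Cd209a* cells with 39.6 CPM, while the 3 gates of *Csf1r* *Lyz2* cells lay close together, at 21.3 to 24.2 CPM, and *Cd79a* cells had 6.82 CPM. In *Cd209a* cells *Cd80* came to 35.9, 55.5, 23.9, 63.1 and 44.0 CPM, so WT TAC was the only group in which it was no higher there than in Ly6c2- Lyve1- cells, which had 25.2 CPM. *Icosl*, the ligand of ICOS, was highest in *Cd79a* cells (137 CPM) and then in *Cd209a* cells (87.3 CPM), although the shares of both gates with more than 3 reads were 33.4% (28.4% to 38.7%) and 33.7% (29.2% to 38.6%). In the 5 groups it ran from 109.9 to 157 CPM in *Cd79a* cells and from 82.3 to 104 CPM in *Cd209a* cells, so these ranges did not overlap.

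*Cd40*, the receptor for help from T cells, came to 98.2 CPM in *Cd79a* cells, 72.8 in *Ly6c2* cells, 51.5 in *Lyve1* cells and 32.2 in Ly6c2- Lyve1- cells. The shares of cells were 26.4% (21.8% to 31.4%), 21.5% (18.0% to 25.3%), 16.3% (11.4% to 22.4%) and 8.98% (7.87% to 10.2%), and neighbours among the first 3 gates overlapped in their intervals. *Xcr1* cells had *Cd40* at 5.10, 5.44, 50.6, 36.8 and 11.7 CPM, but 1 cell held 67.1% of the reads in WT TAC, and only 6 of 154 cells passed 3 reads at equal depth. *Tnfsf9*, which encodes 4-1BB ligand, stood out in *Cd209a* cells with 79.5 CPM, while each other gate had 6.23 to 19.3 CPM. It was read more than 3 times in 23.4% (19.4% to 27.8%) of *Cd209a* cells and 5.18% (4.34% to 6.13%) of Ly6c2- Lyve1- cells.

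*Cd83* was spread over many gates. It came to 228 CPM in *Cd79a* cells, 185 in *Lyve1* cells, 177 in *Xcr1* cells, 157 in Ly6c2- Lyve1- cells and 135 in *Cd209a* cells, and to 52.6 in *Ly6c2* cells and 12.97 in T and NK cells. The share of cells was highest in *Xcr1* cells, 50.6% (42.5% to 58.8%), whose interval overlapped with those of *Cd79a* and *Lyve1* cells, and it was 13.1% (10.3% to 16.3%) in *Ly6c2* cells.

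Of the inhibitory genes, *Vsir* was broadest. It came to 504 CPM in *Lyve1* cells, 446 in *Ly6c2* cells and 421 in Ly6c2- Lyve1- cells, with more than 3 reads in 86.8%, 80.5% and 82.5% of the cells. *Cd209a* cells had 201 CPM, T and NK cells 168, *Xcr1* cells 138 and *Cd79a* cells 44.6. *Havcr2* came to 162 CPM in *Xcr1* cells, and all 5 groups, at 104 to 212 CPM, were higher there than *Cd209a* cells, which had 23.9 to 37.3 CPM. More than 3 reads were found in 52.6% (44.4% to 60.7%) of *Xcr1* cells, 26.8% (23.0% to 30.8%) of *Ly6c2* cells and 19.3% (17.8% to 20.9%) of Ly6c2- Lyve1- cells, against 1.47% of *Cd79a* cells and 1.67% of T and NK cells. *Cd274* was highest in *Cd79a* cells (60.2 CPM) and close to it in the ungated cells (54.3 CPM), and among *Csf1r* *Lyz2* cells it was 34.4 CPM with *Ly6c2*, 19.7 CPM with neither gene and 6.41 CPM with *Lyve1*. The shares in these 3 gates were 10.5% (8.02% to 13.5%), 3.998% (3.26% to 4.85%) and 0.526% (0.0133% to 2.90%), whose intervals did not overlap. *Pdcd1lg2* was read in 98 of all 5263 cells. Its 24.2 CPM in T and NK cells rested on 6 of 120 cells at equal depth, and no gate of *Csf1r* *Lyz2* cells passed 1.55 CPM.

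The first question of the design was how TAC and the lack of T cells bear on these genes in monocytes and macrophages, for which the 3403 cells with *Csf1r* and *Lyz2* were compared. Of the 10 genes, 9 reached 10 CPM in 1 or more groups there and *Pdcd1lg2* did not. Ratios were taken of CPM with 5 added, and 2-fold was taken as the limit. Between WT TAC and WT sham, 0 of the 9 genes were past 2-fold, where 1.26% of all 9524 genes at this level were higher and 1.01% were lower. Between CD3ϵ-/- TAC and CD3ϵ-/- sham 1 gene, *Cd83*, was lower, beside 1.9% of all genes higher and 1.31% lower. In CD3ϵ-/- sham against WT sham (0.472% of all genes higher, 0.556% lower), in CD3ϵ-/- TAC against WT TAC (0.441% and 0.189%) and in CD8-depleted TAC against WT TAC (0.199% and 0.126%) it was 0 of 9. The median log2 ratios of the 9 genes in these 5 comparisons were -0.02, -0.15, -0.01, -0.01 and 0.10, against 0.03, 0.04, -0.03, -0.01 and 0.00 for all genes. WT sham and WT TAC each serve in more than 1 comparison, so the comparisons are not independent.

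**Figure D2:**
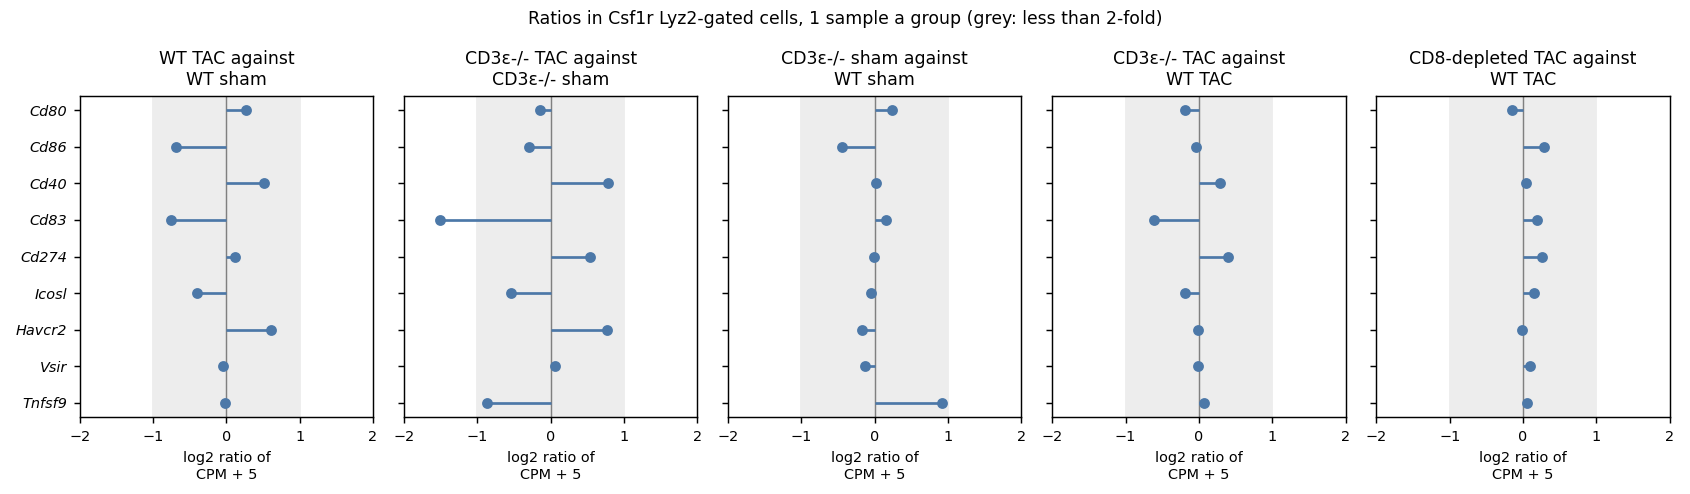
Log2 ratios of summed CPM with 5 CPM added (horizontal axes) of the 9 genes that reached 10 CPM in *Csf1r* *Lyz2* cells, in the 5 comparisons, with ratios of less than 2-fold shaded grey. Only *Cd83* in CD3ϵ-/- TAC against CD3ϵ-/- sham, at -1.51, lies outside the shading.

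Of the 9 genes, *Cd83* had the largest ratio between TAC and sham in both genotypes. It came to 211 (207 to 215) CPM in WT sham, 235 (231 to 240) in CD3ϵ-/- sham, 123 (121 to 125) in WT TAC, 79.2 (77.5 to 80.9) in CD3ϵ-/- TAC and 141 (139 to 144) in CD8-depleted TAC. Both sham groups were higher than the 3 TAC groups, and CD3ϵ-/- TAC was lowest. The log2 ratio of TAC to sham was -0.75 in WT and -1.51 in CD3ϵ-/-, which is 1.68-fold and 2.85-fold lower. The shares of cells with more than 3 reads were 40.8% (36.5% to 45.3%), 48.8% (43.8% to 53.7%), 29.9% (27.1% to 32.7%), 23.2% (19.997% to 26.8%) and 31.4% (27.6% to 35.3%), and so the share of cells and not only their level was lower after TAC. Among cells with more than 3 reads before thinning, the median was also lower, 333 and 352 CPM in sham against 253, 172 and 267 CPM in TAC. Gated cells were deeper after TAC, with median reads of 98578, 127512 and 104344 per cell against 74628 and 80290 in sham. More than 3 reads is a lower CPM in a deeper cell, so this median does not tell level from depth. Sham was above TAC within gates as well. In Ly6c2- Lyve1- cells *Cd83* came to 219, 244, 131, 99.9 and 169 CPM, in *Cd209a* cells to 222, 277, 53.1, 80.7 and 59.6 CPM, in *Xcr1* cells to 224, 371, 114, 112 and 129.9 CPM, and in *Cd79a* cells to 401, 281, 149.6, 108 and 144 CPM. Counted over the 6 gates of monocytes, macrophages, dendritic cells and B cells, it was lower after TAC in 5 gates of WT and 6 of CD3ϵ-/-. The exception was *Lyve1* cells of WT, with 149 CPM in sham and 217 in TAC. In *Ly6c2* cells it was 239, 74.8, 58.1, 29.4 and 46.2 CPM, and 1 cell of the 23 of WT sham held 53.5% of the reads. Markers of *Cd209a* cells, of which the MHC class II genes *Cd74* and *H2-Ab1* gave most of the reads, were also lower after TAC in Ly6c2- Lyve1- cells, with sums over 6 genes of 25862, 29205, 18272, 15382 and 17338 CPM, and neutrophil markers summed over 5 genes ran from 61.8 CPM in WT sham to 341 CPM in CD8-depleted TAC. The part of such cells in the levels of the 10 genes was not tested.

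*Cd86* was also lower after TAC in the *Csf1r* *Lyz2* cells of both genotypes. It came to 209.9 (206 to 214), 153 (149 to 156), 128 (126 to 130), 124 (122 to 126) and 158 (155 to 160) CPM, so WT sham was highest, and CD3ϵ-/- sham was below CD8-depleted TAC. The log2 ratios were -0.69 in WT TAC against WT sham, -0.29 in CD3ϵ-/- TAC against CD3ϵ-/- sham, -0.44 in CD3ϵ-/- sham against WT sham and 0.29 in CD8-depleted TAC against WT TAC. Shares of cells were 48.7% (44.2% to 53.2%), 41.0% (36.2% to 45.9%), 34.7% (31.8% to 37.7%), 34.9% (31.1% to 38.7%) and 40.5% (36.5% to 44.6%), and the intervals of WT sham and WT TAC did not overlap, while those of the 2 CD3ϵ-/- groups did. In *Xcr1* cells, where *Cd86* was highest, it came to 226, 226, 272, 231 and 244 CPM, and so the TAC groups were not lower there. In *Cd209a* cells it came to 53.7, 105, 71.2, 122 and 104 CPM, higher after TAC in both genotypes. Over the 6 gates *Cd86* was lower after TAC in 4 in WT and in 4 in CD3ϵ-/-. Over all kept CD45+ cells its log2 ratios of TAC to sham were -0.17 in WT and -0.05 in CD3ϵ-/-. *Cd80*, the other B7 ligand, came to 20.9 (19.7 to 22.2), 25.4 (24.0 to 26.9), 26.2 (25.4 to 27.1), 22.4 (21.5 to 23.4) and 23.1 (22.0 to 24.2) CPM, and the shares of 5.43% to 7.07% overlapped in all 5 groups.

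*Icosl* was lower after TAC in gated cells, with 71.2 (69.0 to 73.6), 68.9 (66.6 to 71.2), 52.7 (51.5 to 53.9), 45.7 (44.4 to 47.0) and 59.2 (57.4 to 60.9) CPM. Both sham groups were higher than all TAC groups in level, but the shares of cells, 20.3%, 22.2%, 18.7%, 16.1% and 18.9%, overlapped in their intervals between all neighbours in rank. The direction was not that of every gate. Over the 6 gates *Icosl* was lower after TAC in 4 in WT and in 3 in CD3ϵ-/-. *Cd209a* cells had 82.3 and 86.3 CPM in sham and 82.8, 91.5 and 104.5 CPM in TAC. In Ly6c2- Lyve1- cells *Icosl* was 78.6, 76.4, 54.9, 51.0 and 64.5 CPM, while in *Ly6c2* cells it was 16.2 and 20.3 CPM in sham and 45.6, 35.3 and 48.2 CPM in TAC, where 1 cell held 46.8% of the reads in WT sham and 1 cell held 46.2% in CD3ϵ-/- sham.

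**Figure D3:**
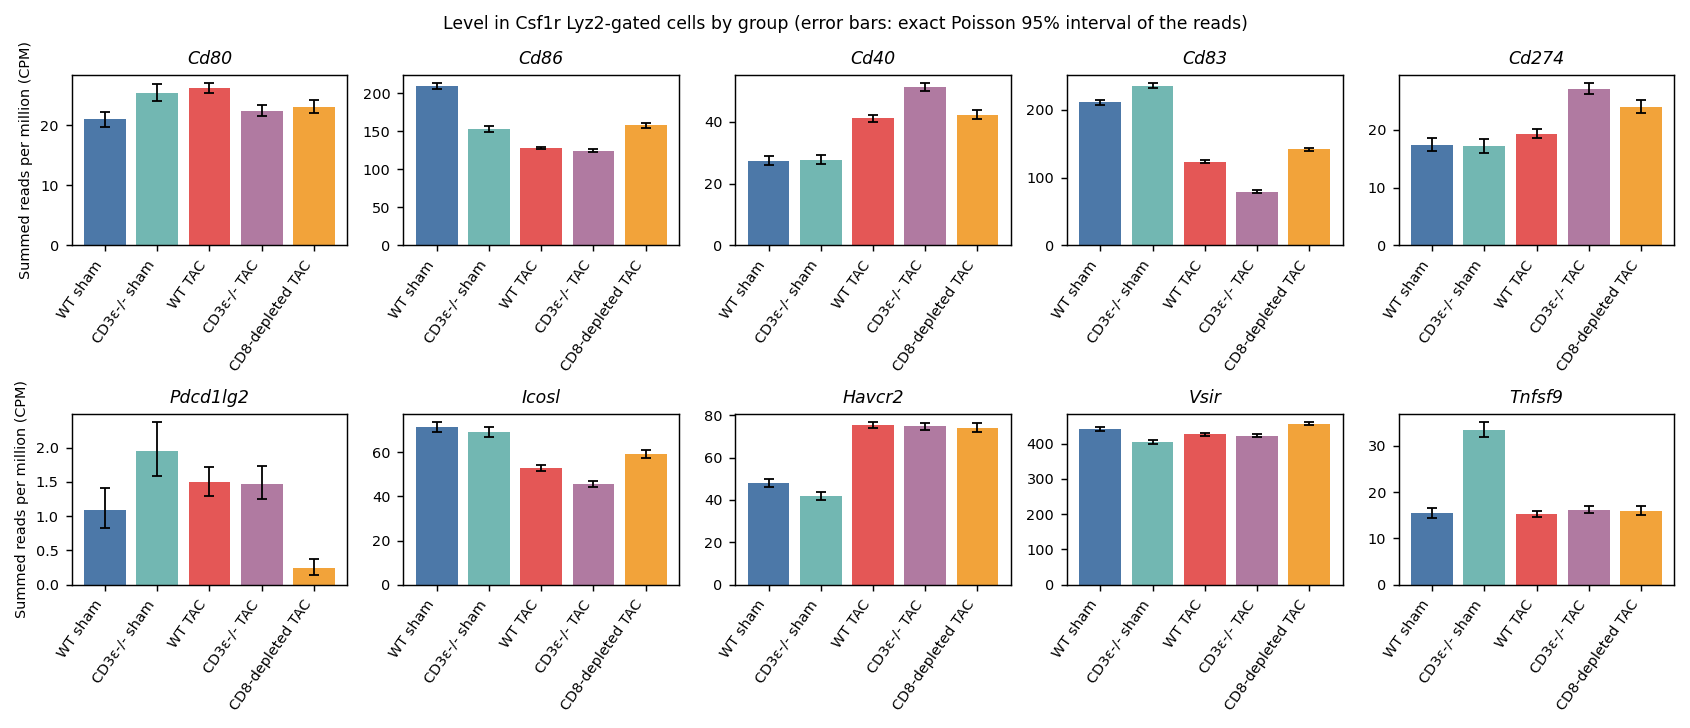
Level of each of the 10 genes in *Csf1r* *Lyz2* cells (vertical axes, CPM) in the 5 groups, with exact Poisson 95% intervals of the summed reads as error bars. *Cd83*, *Cd86* and *Icosl* have their highest bars in sham groups, *Cd40* and *Havcr2* are higher in all 3 TAC groups than in both sham groups, and *Vsir* stays between 404 and 457 CPM.

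*Cd40* and *Havcr2* were higher after TAC in the *Csf1r* *Lyz2* cells of both genotypes. *Cd40* came to 27.3 (25.9 to 28.7), 27.7 (26.3 to 29.2), 41.0 (40.0 to 42.1), 51.2 (49.8 to 52.6) and 42.2 (40.8 to 43.7) CPM. The lowest TAC group was thus above both sham groups, with log2 ratios of 0.51 in WT and 0.78 in CD3ϵ-/-. Shares of cells were 8.25% (5.98% to 11.03%), 8.29% (5.81% to 11.4%), 11.4% (9.53% to 13.5%), 14.3% (11.7% to 17.3%) and 13.4% (10.7% to 16.4%), and of these only CD3ϵ-/- TAC had an interval above those of both sham groups. The *Ly6c2* gate, in which *Cd40* was high, held more of the cells after TAC. Within that gate *Cd40* was 35.9, 54.3, 59.0, 85.0 and 81.0 CPM, but only 23 and 34 cells came from the sham groups, and in Ly6c2- Lyve1- cells it was 23.4, 23.0, 37.3, 37.9 and 28.1 CPM. Over the 6 gates *Cd40* was lower after TAC in 2 in WT and in 0 in CD3ϵ-/-. In *Cd79a* cells, where it was highest, it came to 136, 77.9, 99.7, 102 and 80.6 CPM. *Lyve1* cells of WT had 48.0 CPM in sham and 45.1 in TAC. *Tnfsf9*, the other gene of the TNF family of signals, came to 15.4 (14.4 to 16.6), 33.5 (31.9 to 35.2), 15.2 (14.6 to 15.9), 16.2 (15.4 to 17.0) and 16.0 (15.1 to 16.9) CPM. CD3ϵ-/- sham stood above the rest, with a log2 ratio of 0.91 to WT sham, but 1 of its cells held 20.7% of the reads, and its share of cells, 7.80% (5.40% to 10.8%), overlapped with the 4.23% (2.63% to 6.39%) of WT sham. In *Cd209a* cells, the gate where *Tnfsf9* was highest, it was 109.6 and 132 CPM in sham and 51.4, 56.3 and 51.4 CPM in TAC. Over the 6 gates *Tnfsf9* was lower after TAC in 5 in WT and in 5 in CD3ϵ-/-, of which 4 and 3 were past 2-fold. Ly6c2- Lyve1- cells of WT went the other way, with 10.4 CPM in sham and 16.6 in TAC. Some of these gates held few reads, and in *Lyve1* cells of WT sham 1 cell held 63.1% of them.

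*Havcr2* came to 47.9 (46.0 to 49.8), 41.9 (40.2 to 43.8), 75.3 (73.9 to 76.8), 74.9 (73.2 to 76.5) and 74.1 (72.2 to 76.1) CPM. The 3 TAC groups lay close to each other, above both sham groups, and the log2 ratios of TAC to sham were 0.60 in WT and 0.77 in CD3ϵ-/-. Shares of cells were 14.5% (11.5% to 17.9%), 13.4% (10.3% to 17.1%), 21.7% (19.3% to 24.4%), 24.4% (21.1% to 27.9%) and 22.0% (18.7% to 25.5%), and no interval of a TAC group overlapped with one of a sham group. The level was higher in both larger gates, with 38.3, 39.4, 119.6, 79.2 and 91.5 CPM in *Ly6c2* cells and 50.7, 43.8, 67.9, 74.2 and 71.3 CPM in Ly6c2- Lyve1- cells, although 1 of the 23 *Ly6c2* cells of WT sham held 64.9% of their reads. In *Xcr1* cells, with 122, 212, 175, 104 and 170 CPM, no such order was found.

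*Cd274* was highest in CD3ϵ-/- TAC. It came to 17.4 (16.3 to 18.5), 17.2 (16.0 to 18.4), 19.3 (18.6 to 20.1), 27.1 (26.1 to 28.1) and 24.0 (22.9 to 25.1) CPM, so both sham groups were lowest. The log2 ratio of CD3ϵ-/- TAC to CD3ϵ-/- sham was 0.53, and that of CD3ϵ-/- TAC to WT TAC was 0.40. Shares of cells were 3.62% (2.16% to 5.66%), 2.68% (1.35% to 4.75%), 4.15% (3.02% to 5.56%), 7.32% (5.41% to 9.65%) and 6.00% (4.22% to 8.25%), and the interval of CD3ϵ-/- TAC was above that of CD3ϵ-/- sham but overlapped with that of WT TAC. Taken from means of single-cell CPM, the ratio in CD3ϵ-/- was past 2-fold, with a log2 value of 1.03, and it was 1.09 after thinning, but over all kept CD45+ cells it was -0.09, with levels of 23.5, 29.4, 22.5, 27.3 and 24.7 CPM. In the *Ly6c2* gate, which held more of the cells after TAC, *Cd274* was 24.2, 18.3, 31.9, 38.7 and 36.2 CPM, and in Ly6c2- Lyve1- cells 18.6, 17.8, 17.4, 24.0 and 21.0 CPM. Over the 6 gates it was lower after TAC in 4 in WT and in 3 in CD3ϵ-/-. *Vsir* came to 442 (436 to 447), 404 (399 to 410), 426 (423 to 430), 422 (419 to 426) and 457 (452 to 462) CPM, and its log2 ratios lay between -0.13 and 0.10. *Pdcd1lg2* came to 1.10, 1.95, 1.496, 1.48 and 0.238 CPM, and 12 of 3153 cells at equal depth passed 3 reads in all.

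**Figure D4:**
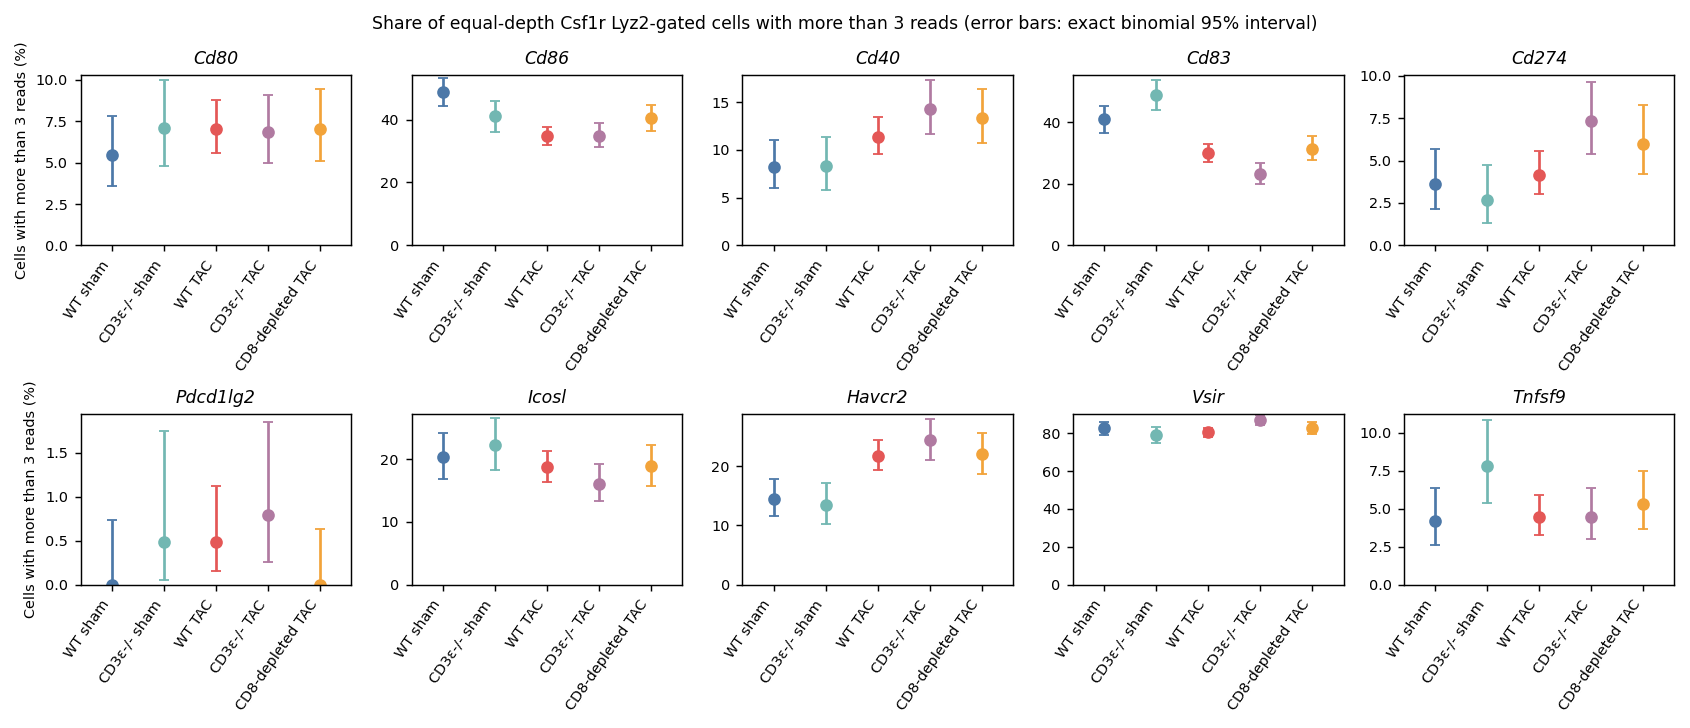
Share of *Csf1r* *Lyz2* cells with more than 3 reads of each gene after every cell was thinned to 34832 reads (vertical axes, %), in the 5 groups, with exact binomial 95% intervals as error bars. For *Havcr2* the intervals of the 3 TAC groups lie above those of both sham groups, and for *Cd83* they lie below.

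Genes of early response and tissue dissociation, which can be switched on while a tissue is taken apart, moved beside *Cd83* in the levels of the groups. The summed level of the 15 genes of this list in gated cells was 19515, 18066, 10194, 9537 and 10297 CPM, and 5 of 15 (*Fosb*, *Egr1*, *Atf3*, *Hspa1a* and *Hspa1b*) were 2-fold or more lower after TAC in WT and 5 of 15 in CD3ϵ-/-. In cells below the median of the list, which was 9133 CPM, the log2 ratio of *Cd83* was -0.51 in WT and -0.94 in CD3ϵ-/-, so the 2-fold limit was no longer passed, and in cells above it the ratios were -1.28 and -2.13. The direction was thus the same in both parts. Within the TAC groups, however, *Cd83* was lower in the cells with more of these genes. There it was 163, 104 and 163 CPM below the median and 78.3, 54.1 and 119 CPM above it. The sham groups differed, with 233 and 204 CPM below and 197 and 253 CPM above. For *Cd86* the ratios were -0.77 and -0.32 below, and -0.78 and -0.43 above. For *Havcr2* they were 0.30 and 0.98 below, and 0.84 and 0.70 above. For *Tnfsf9* they were 0.97 and -0.05 below, and -0.19 and -1.01 above, so in WT the sign differed between the parts. The part of dissociation in these results was not tested.

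**Figure D5:**
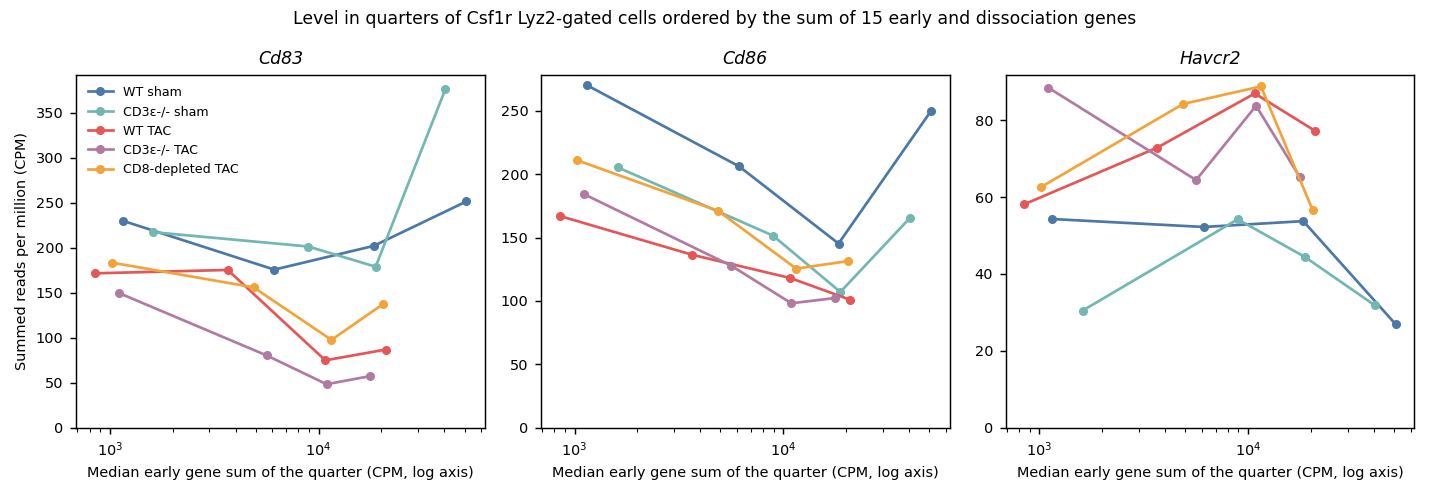
Level of *Cd83*, *Cd86* and *Havcr2* (vertical axes, CPM) in 4 bins of like cell number of the *Csf1r* *Lyz2* cells of each group, ordered by the summed level of 15 early and dissociation genes (horizontal axes, median of the bin in CPM, log scale). In the bin with the lowest sums *Cd83* is 230.1 and 217 CPM in the sham groups and 172, 149.7 and 184 CPM in the TAC groups, and in the bin with the highest sums 252 and 376 CPM against 86.8, 57.3 and 138 CPM.

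Other lists of the same pathway were looked at in the gated cells. Of 9 targets of NF-kB, through which CD40 signals, 0 were 2-fold or more higher after TAC, and 1 (*Nfkbiz*) was lower in WT and 3 (*Nfkbiz*, *Tnfaip3* and *Tnf*) were lower in CD3ϵ-/-. *Relb* and *Nfkb1*, subunits of NF-kB, had log2 ratios of 0.22 and 0.11 in WT and 0.44 and 0.25 in CD3ϵ-/-. Of 10 genes of the interferon response, which can raise *Cd274*, 7 were higher in WT and 8 in CD3ϵ-/-, with median log2 ratios of 2.02 and 1.78. Their summed level was 553, 605, 1354, 1658 and 2041 CPM. *Irf1*, of the same list, went the other way, with 216, 198, 113, 104 and 130 CPM. Its log2 ratios of TAC to sham were -0.91 in WT and -0.89 in CD3ϵ-/-. Between CD3ϵ-/- TAC and WT TAC 1 of the 10 (*Cxcl9*, a chemokine) was 2-fold or more higher. The part of interferon in the level of *Cd274* was not tested. Of 18 other costimulatory and checkpoint genes 16 were in the matrix and 11 reached 10 CPM. *Tnfsf14*, which encodes LIGHT, another ligand of the TNF family, was the 1 gene of them past 2-fold, higher in WT TAC (10.3 CPM) than in WT sham (2.33 CPM), and it was 6.66 CPM in CD3ϵ-/- sham and 12.6 CPM in CD3ϵ-/- TAC. *Lgals9*, which encodes galectin-9, a ligand of TIM-3, came to 128, 138, 180.5, 211 and 231 CPM.

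The T cell partners of these genes were rare in the gated cells. Of *Cd28*, *Ctla4*, *Icos*, *Pdcd1*, *Cd40lg* and *Tnfrsf9* only *Ctla4* reached 10 CPM, in WT sham with 16.3 CPM, against 0.736, 2.32, 0 and 0.423 CPM in the other groups, and it was 2-fold or more lower in WT TAC against WT sham and in CD3ϵ-/- sham against WT sham. The summed level of the 6 genes was 35.5, 5.87, 10.3, 3.03 and 4.98 CPM. Markers of T and NK cells in Ly6c2- Lyve1- cells summed to 53.2 CPM in WT sham and to 3.46 to 18.3 CPM in the other groups, so the trace of T cell RNA was highest in WT sham. Markers of B cells came to 26.5 to 40.6 CPM in the same gate, against 4061 to 5477 CPM in *Cd79a* cells. Their part in the levels of the 10 genes was not tested.

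A small set of 19 cells with both *Ccr7* and *Fscn1*, genes of dendritic cells that mature and migrate, was looked at across gates (6, 3, 6, 2 and 2 cells). Their summed level of 5 further markers of such cells was 7508 CPM, against 674 CPM or less in each gate. They held *Cd83* at 777 CPM, with more than 3 reads in 18 of 19 cells, *Cd40* at 238, *Cd274* at 240, *Icosl* at 203 and *Cd80* at 140 CPM, each higher than in any gate, although 1 cell held 41.5% of the *Cd80* reads, 39.6% of the *Cd40* reads and 31.1% of the *Icosl* reads. *Pdcd1lg2* came to 20.3 CPM, from 71 reads in 5 of the 19 cells, and 1 cell held 39.4% of these reads. *Tnfsf9*, at 66.5 CPM, was below the 79.5 CPM of *Cd209a* cells, and 1 cell held 61.2% of its reads. *Vsir* came to 41.8 CPM and *Havcr2* to 1.72 CPM, each lower than in any gate. With 2 to 6 cells a group, levels of the groups are not compared, but *Cd83* was 443 CPM or more in each.

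Over 36 profiles (gate by group, of 20 or more cells), the members were not alike as a whole. *Cd86* and *Havcr2* had the closest profiles of any pair (Pearson's r = 0.82), followed by *Cd80* and *Tnfsf9* (r = 0.58), and *Cd86* and *Pdcd1lg2* were most opposed (r = -0.73). Among 7621 genes the profile of *Vsir* was most like those of *Mef2a*, *Slc6a6* and *Ctsb* (r = 0.92, 0.91 and 0.91), that of *Cd86* most like *Man2b1* (r = 0.91), that of *Havcr2* most like *Rab32* (r = 0.87), that of *Cd40* most like *Irf2* (r = 0.83) and that of *Icosl* most like *H2-DMb2* (r = 0.85), which helps to load MHC class II. *Cd83* was most like *Snx9* (r = 0.79), *Cd274* most like *H3f3b* (r = 0.76), *Cd80* most like *Mcub* (r = 0.82), *Tnfsf9* most like *Etv3* (r = 0.78) and *Pdcd1lg2* most like *Lef1* (r = 0.89), a gene of T cells. *Pdcd1lg2* came to at most 44.3 CPM in a profile, under the 50 CPM asked of the 7621 genes. In that profile, T and NK cells of WT TAC, 5 of 33 cells had more than 3 reads, so its r rests on few cells. The profiles share 1 library and the groups share gates, so r is a description.

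In single *Csf1r* *Lyz2* cells, cells with one gene often had another, but cells with reads of a gene were also the deeper ones. Of 362 cells with more than 3 reads of *Cd274*, 40.1% also had *Cd40* and 44.5% had *Havcr2*, against 22.0% and 26.1% of the other cells, with median reads of 167062 and 91530 per cell. Of 1397 cells with *Cd83*, 57.1% had *Cd86* against 44.2% of the others, at median reads of 104039 and 93060.5. At equal depth a gated cell showed on average 2.29 ± 1.10 (SD over 497 cells), 2.31 ± 1.11 (410 cells), 2.13 ± 1.10 (1035 cells), 2.19 ± 1.13 (628 cells) and 2.27 ± 1.09 (583 cells) of the 10 genes, with a median of 2 in each group.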

How the data were processed

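CD45+ cells of 5 hashtagged groups were sequenced in 1 pooled TAS-Seq library. The authors deposited raw counts, whole reads per gene and cell barcode, not normalized and not collapsed to molecules. Per the labels, cutadapt 2.10 and Bowtie2 2.4.2 were used and the build was GRCm38. The name of the matrix tells of a cutoff at an inflection point and of an error correction by read distribution (DBEC), after which 2.90% of the 16524 genes read in 100 or more cells, but none of the 10 genes described, have no values of 1 to 3 reads. Most genes of the gates lack such values too, namely *Cd79a*, *Lyz2*, *Xcr1*, *Cd209a*, *Lyve1*, *Cd3g*, *Nkg7*, *Ccr7* and *Fscn1*, but not *Csf1r* and *Ly6c2*. In the label check, *Cd8a* and *Cd8b1* also lack them. The effect on the gates was not tested. The hashtag of each group was taken from the notes deposited with the matrix. Of 5363 columns, 8 without hashtag and 40 doublets called by the authors (48 columns) were not used, and no further caller was run.

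Following the study's methods, cells with 500 or more genes (of those in 5 or more cells) and a mitochondrial share of at most 0.4 were kept, which left 5263. Gates in CPM of a cell were *Csf1r* 200, *Lyz2* 1000, *Ly6c2* 500, *Lyve1* 100, *Cd209a* 200, *Xcr1* 50, *Cd79a* 500, *Cd3g* or *Nkg7* 200, and *Ccr7* and *Fscn1* 200. A cell was taken by *Cd79a* first, then by *Xcr1*, *Cd209a*, and *Csf1r* with *Lyz2* (within it *Ly6c2* before *Lyve1*), and last as T and NK. Cells with *Cd79a* and both myeloid genes (39) and ungated cells (648) were kept apart, and 306 cells lay within 2-fold of the *Ly6c2* limit. Reads were summed per group, and genes at 10 CPM in 1 or more groups were compared by log2 ratios with 5 CPM added. With 1 sample per group there was no test. Thinning to the 10th percentile of reads left 4736 cells. The genes named were the 10 genes, the lists, label checks and, for each of the 10, the genes of highest Pearson's r among those at 50 CPM in a profile. Genes and lists were chosen with earlier results of these data known. The steps were tested on simulated data with known changes larger than 2-fold in genes at 50 CPM or more. Smaller changes and changes in genes of lower level were not tried, nor were several reads of 1 molecule. Software was pandas 2.3.3, numpy 2.4.6, matplotlib 3.10.9 and scipy 1.17.1 under Python 3.11.15. Alternatives concerned the averaging, the gate limits, the pseudocount, the level and mitochondrial filters, the cells compared and the depth.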

Additional observations from a re-analysis of the deposited data

Results flagged for a closer look

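For *Cd80* and *Vsir* the ratio of TAC to sham had opposite signs in the 2 genotypes, in *Csf1r* *Lyz2* cells. The log2 ratio of *Cd80* was 0.27 in WT TAC against WT sham and -0.15 in CD3ϵ-/- TAC against CD3ϵ-/- sham. That of *Vsir* was -0.050 in WT and 0.063 in CD3ϵ-/-. All 4 ratios are well within 2-fold, each rests on 1 sample per group, and the difference between the genotypes was not tested. In cells below the median of the early genes the signs were the same in both genotypes, with 0.72 in WT and 0.21 in CD3ϵ-/- for *Cd80* and 0.013 and 0.097 for *Vsir*, and they were also the same with means of the CPM of single cells, with 0.20 and 0.088 for *Cd80* and -0.088 and -0.12 for *Vsir*.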

How the results depend on the processing

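In CD3ϵ-/- TAC and in CD8-depleted TAC, each against WT TAC, the count of genes past 2-fold was 0 under each alternative tried. In WT TAC against WT sham it was 1 (*Cd83*, lower) in cells at or above the median of the early genes, and 0 under the others. In CD3ϵ-/- TAC against CD3ϵ-/- sham it was 1 (*Cd83*), and it was 2 with *Tnfsf9*, lower, when gate limits were doubled, 1 CPM was added or all kept CD45+ cells were used, and 2 with *Cd274*, higher, with means of the CPM of single cells or with thinned cells. It was 0 in cells below that median and 2 (*Cd83* and *Tnfsf9*, both lower) in the cells at or above it, a split chosen after seeing the data. In CD3ϵ-/- sham against WT sham it was 1 (*Tnfsf9*, higher) in cells below the median and with 1 CPM added, instead of 0. The log2 ratio of *Cd83* in CD3ϵ-/- ran from -1.59 to -1.35 over the alternatives chosen at the start. The causes were not tested. Of 585 ratios under the alternatives chosen at the start 544 kept their sign, as did 122 of 135 in the parts of that split and with 3 or fewer reads set to 0, also chosen after seeing the data. A sign cannot change with another pseudocount or level filter, so those alternatives could only add kept signs to the 544. In size, 179 of the 585 ratios and 64 of the 135 moved by more than the counting error of their reads. The gate with the highest level was the same for 9 of 10 genes when limits were halved or cells thinned, where *Cd274* was highest in ungated cells, and for 10 of 10 with doubled limits or a mitochondrial share of at most 0.25. Leaving out a replicate was not possible with 1 sample per group. Depth limits the genes of low level: *Pdcd1lg2* gave no ratio, and *Cd80*, *Cd274* and *Tnfsf9* had more than 3 reads in under 10% of the gated cells after thinning.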
